A study of Mus musculus with 9 samples.

Results

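The 10 genes described here are those that let a cell show peptides on MHC class II molecules: the transactivator Ciita, the classical chains H2-Aa, H2-Ab1 and H2-Eb1, the invariant chain Cd74, the peptide exchange chains H2-DMa, H2-DMb1, H2-Oa and H2-Ob, and the protease Ctss. They were taken by gene symbol from the 56719 genes of the deposited tables, and all 10 were listed there. Of these, 9 passed the filter on low counts and were tested among 17704 genes. H2-Oa did not pass it, with 1, 3 and 1 reads in the WT libraries, 0, 2 and 1 reads after Con A and 0, 2 and 0 reads in the FMT-Con A libraries.

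MHC class II molecules carry peptides from proteins taken up by the cell and show them to CD4 T cells. Their chains are made mainly in B cells, dendritic cells and macrophages, and interferon-gamma can induce them in other cells through JAK1, JAK2 and IRF1, which raise CIITA. CIITA does not bind DNA itself: it acts on a complex of RFX, CREB and NF-Y proteins seated on short promoter elements named X and Y. In the liver, Kupffer cells, dendritic cells and the sinusoidal endothelium are known to present antigen in this way.

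The study measured polyA RNA from mouse liver in 9 libraries, 3 in each of 3 groups, all labelled as the inbred strain C57BL/6J with no altered allele. WT mice were given PBS only. Con A mice received the plant lectin concanavalin A, which sets off an acute T-cell-driven hepatitis used as a model of autoimmune hepatitis, at 10 mg/kg into a tail vein on the day the liver was taken. FMT-Con A mice had 4 weeks of gavage with a suspension of faeces from mice of the Con A model before that injection, while mice of both other groups had PBS over those weeks. Con A and FMT-Con A mice thus share the injection, WT and Con A mice share the lack of transferred faeces, and no group had the transfer without the injection. Age, and the time from injection to sampling, were not given in the sources used here.

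Total counts ran from 20513051 to 29466806 per library, and the share of mitochondrial genes was 19.6 to 22.4% for WT, 5.03 to 9.96% for Con A and 7.44 to 11.7% for FMT-Con A. The hepatocyte markers fixed for the label check summed to 40338 CPM (counts per 1000000 of the library's scaled total) or more in every library, and none of them was at 0. Skeletal muscle genes set some libraries apart: a list of 8 summed to 2.15 to 6.09 CPM in WT, while Con A 1, 2 and 3 had 1.31, 4.75 and 1156 CPM and FMT-Con A 1, 2 and 3 had 10947, 1108 and 10626 CPM. The members' results that rest on FMT-Con A 1 and 3 are given with and without them. Some marker lists are given by library, and others only as ranges over a group. The labels name both sexes for the same mice, and the Y-linked gene Ddx3y was read at 99.9 to 259 CPM in all 9 libraries against 1.04 to 6.36 CPM for Xist.

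The RefSeq promoter table (GRCm38.p6) holds 8 entries for 7 of the members, and Ciita, H2-Ab1 and Cd74 are not shown. The windows below are shown because they hold, in this order, letters of the X and Y elements on which CIITA's partners are known to sit. Each spans 72 bases before the annotated start and is written 5′ to 3′ on the strand of its gene, and the capitals mark CTNGNAAC, a core of the X element, and TGATTGG, the Y element with its inverted CCAAT box. The windows are chr17:34287857-34287928 on the minus strand for H2-Aa, chr17:34305751-34305822 on the plus strand for H2-Eb1 and chr17:34238791-34238862 on the plus strand for H2-Ob.
H2-Aa: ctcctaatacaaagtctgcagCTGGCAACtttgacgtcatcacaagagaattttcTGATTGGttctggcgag
H2-Eb1: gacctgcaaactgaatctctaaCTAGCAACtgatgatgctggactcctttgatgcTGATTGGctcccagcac
H2-Ob: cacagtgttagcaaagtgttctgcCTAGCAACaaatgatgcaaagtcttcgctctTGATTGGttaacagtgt

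In these windows 26 bases lie between the capitals in H2-Aa, 25 in H2-Eb1 and 23 in H2-Ob, and TGATTGG begins 50, 61 and 59 bases before the start. H2-DMb1 holds the same pair, 26 bases apart. H2-Oa held TGATTGG without CTNGNAAC, and the entries of Ctss and H2-DMa held neither. Both strings were searched on both strands of the 250 bases before each start. The pair was taken as CTNGNAAC followed by TGATTGG on the same strand, either strand counting, with 15 to 40 bases between. These letters and limits were chosen after the member promoters had been seen. Of 32851 promoter entries of the same length, 10.9% held CTNGNAAC, 7.23% held TGATTGG and 20, or 0.0609%, held the pair. Those 20 include the entries of the 4 members that held it. A match is a run of letters and not a measured site.

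The plot of member levels gives all 10 genes in all 9 libraries. Per kilobase of merged exons, the WT order was Cd74 at 22.5 CPM per kb, Ctss at 12.6, H2-Eb1 at 8.58, H2-Ab1 at 5.56, H2-Aa at 4.38, H2-DMb1 at 1.05, H2-DMa at 0.842, Ciita at 0.385, H2-Ob at 0.149 and H2-Oa at 0.054. In WT, H2-Ab1 and H2-Aa overlapped over their libraries, as did H2-DMb1 and H2-DMa, and the other neighbours did not. In the Con A livers the first 5 kept this order, from Cd74 at 60.3 to H2-Aa at 7.44 CPM per kb, with no overlap between neighbours. The order of the classical chains rests in part on the merged exon lengths. Before division by 1.94, 2.57 and 3.8 kb, H2-Eb1, H2-Ab1 and H2-Aa had means of 16.7, 14.3 and 16.6 CPM in WT. In Con A these means were 32.3, 27.2 and 28.3 CPM. In the FMT-Con A livers the ranges of Cd74 (mean 27.5 CPM per kb) and Ctss (19.6) overlapped, and H2-DMb1, at 0.622, lay below Ciita, at 0.776.

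**Figure D1:**
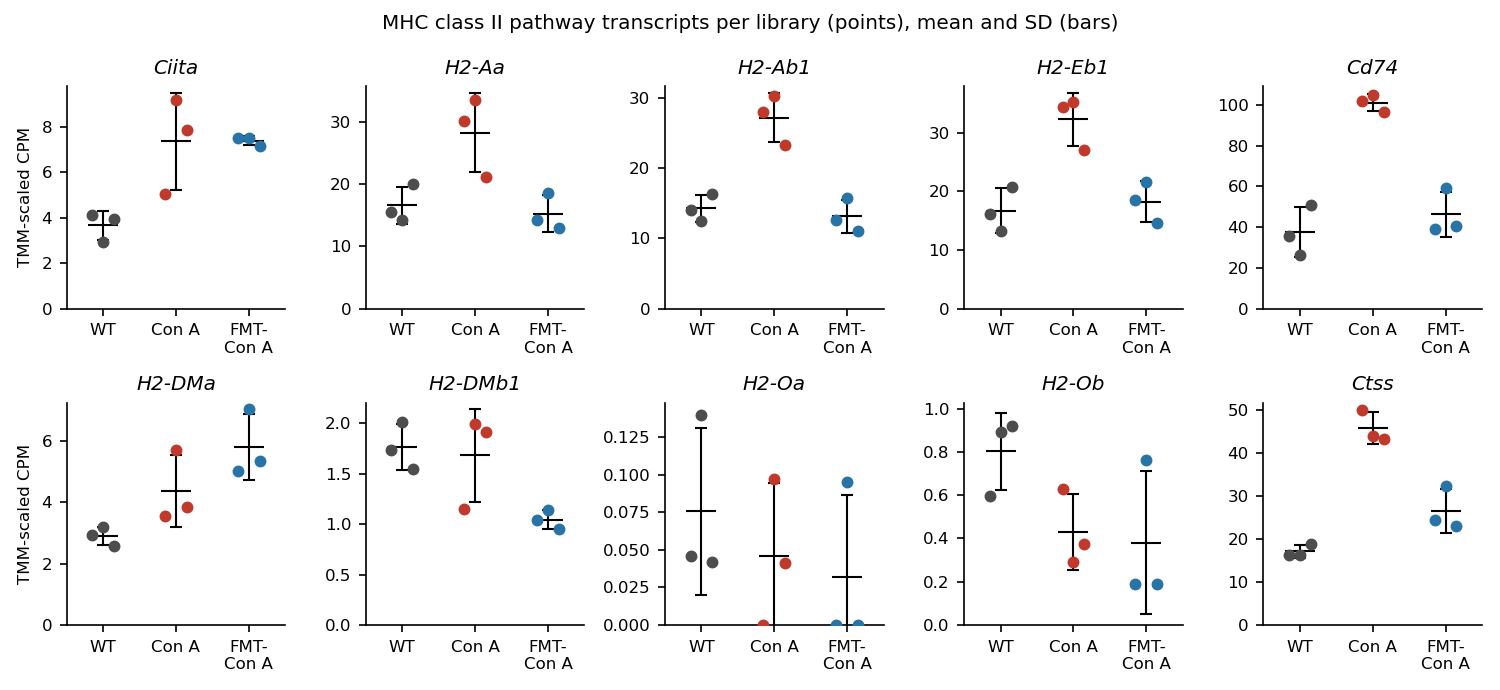
CPM on a linear axis for each of the 10 class II genes, 1 panel per gene with its own scale, with 1 point per library (3 WT, 3 Con A, 3 FMT-Con A), and bars for the group mean and SD, cut off at 0. Cd74 stands between 96.8 and 105 CPM in the Con A libraries and at or below 59.1 CPM in all others, while Ciita is as high in FMT-Con A as in Con A.

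After Con A alone, the transactivator, the classical chains, the invariant chain and the class II protease all rose, by 1.70 to 2.68 times. The rise took in 6 of the 9 tested members, with none lower, at an adjusted p under 0.05 (edgeR's quasi-likelihood test, Benjamini-Hochberg over all 17704 genes). In the same comparison 63.4% of all tested genes were called, 32.5% as higher, so that the members' count stands beside a background in which most tested genes were called (30.9% as lower). The members' median log2 fold change was 0.93, and that of all tested genes was 0.01. Over all 10 members, 7 had no overlap between the WT and Con A libraries, against 69.8% of tested genes. All 6 calls held with each library left out in turn, Con A 3 with its muscle counts included.

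Ciita (chr16:10480059-10528418, GRCm38) codes for the transactivator on which class II transcription depends. Its level was 4.12, 2.95 and 3.93 CPM in WT, 5.03, 9.17 and 7.88 CPM in Con A, and 7.51, 7.5 and 7.17 CPM in FMT-Con A. All 6 injected livers were above all WT livers, and Con A 1 was the lowest of the 6. Ciita rose by 1.00 on the log2 scale after Con A (SE 0.24, edgeR adjusted p = 0.00414), a fold of 2.01. Its exons overlap the antisense gene Dexi over 329 bases, and 0.765% of its 75-base stretches also occur in Dexi.

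H2-Aa codes for the alpha chain of I-A, and it was read at 15.6, 14.3 and 20 CPM in WT, 30.1, 33.6 and 21.2 CPM in Con A, and 14.2, 18.6 and 13 CPM in FMT-Con A. All Con A libraries lay above all others, with Con A 3 close to WT 3. It rose by 0.76 on the log2 scale after Con A (SE 0.21, edgeR adjusted p = 0.00898). Its partner H2-Ab1, the I-A beta chain, stood at 14, 12.5 and 16.3 CPM in WT, 28, 30.2 and 23.3 CPM in Con A, and 12.6, 15.7 and 11.1 CPM in FMT-Con A. Con A was again the separate group, with the WT and FMT-Con A libraries interleaved below it. H2-Ab1 rose by 0.93 (SE 0.17, edgeR adjusted p = 0.000825).

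H2-Eb1, the beta chain of I-E, was at 16.1, 13.2 and 20.8 CPM in WT, 34.5, 35.3 and 27.1 CPM in Con A, and 18.5, 21.7 and 14.6 CPM in FMT-Con A, and it rose by 0.95 after Con A (SE 0.20, edgeR adjusted p = 0.00207). The lowest Con A library was above the highest of both other groups. The I-E alpha chain, outside the members, is annotated on GRCm38 as the polymorphic pseudogene H2-Ea-ps, since C57BL/6 carries a non-functional allele of it. Reads were assigned to it in every library: 17.6, 16.2 and 23.7 CPM in WT, 28.3, 36.4 and 24.7 CPM in Con A, and 16.5, 20.2 and 15.9 CPM in FMT-Con A. None of its 75-base stretches occurs in another gene of the annotation. It rose by 0.64 after Con A (edgeR adjusted p = 0.0133), a call lost without WT 1 (0.55, adjusted p = 0.0647), WT 2 (0.50, 0.0672) or Con A 2 (0.46, 0.0549). The origin of these reads was not tested.

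Cd74, the invariant chain that fills the class II groove and guides the molecule to the endosome, lies on chromosome 18, away from the chains it serves. It had 35.8, 26.4 and 50.9 CPM in WT, 102, 105 and 96.8 CPM in Con A, and 39, 59.1 and 40.7 CPM in FMT-Con A. The Con A libraries lay far above the rest and close to each other, while WT spread most. Cd74 rose 2.68 times, or 1.42 on the log2 scale (SE 0.24, edgeR adjusted p = 0.000523). Ctss codes for cathepsin S, the protease that trims the invariant chain down to the fragment left in the groove. It stood at 16.3, 16.3 and 18.8 CPM in WT, 50, 44 and 43.2 CPM in Con A, and 24.4, 32.4 and 22.9 CPM in FMT-Con A. Its 3 groups did not overlap, with FMT-Con A in the middle, and it rose by 1.42 after Con A (SE 0.15, edgeR adjusted p = 2.52e-05).

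None of the peptide exchange chains was called after Con A. H2-DMa, the alpha chain of the exchange factor H2-DM, was at 2.93, 3.18 and 2.59 CPM in WT, 3.56, 5.72 and 3.85 CPM in Con A, and 5.02, 7.03 and 5.34 CPM in FMT-Con A. Both injected groups lay above WT, but the log2 fold change after Con A, 0.59 (SE 0.24), missed the threshold at an edgeR adjusted p of 0.0531. It passed without Con A 1 (0.72, adjusted p = 0.0382) and moved to 0.35 (adjusted p = 0.194) without Con A 2. H2-DMb1, the beta chain of the same pair, showed no such order, with 1.74, 2.01 and 1.55 CPM in WT, 1.15, 1.99 and 1.91 CPM in Con A, and 1.04, 1.14 and 0.954 CPM in FMT-Con A. All FMT-Con A libraries were below all others, if only just below Con A 1, and WT and Con A overlapped (log2 fold change -0.06, SE 0.28, edgeR adjusted p = 0.853).

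Counting could blur both H2-DM genes. H2-DMa shares 360 exon bases with the antisense gene Brd2, which was itself read at a mean of 167 CPM in WT and 257 CPM in Con A and rose by 0.63 (edgeR adjusted p = 0.00424). Since no source used here says whether reads were counted by strand, reads of Brd2 and of H2-DMa cannot be told apart in those bases. In H2-DMb1, 15.835% of the 75-base stretches also occur in the neighbouring copy H2-DMb2, which was not called in any comparison. H2-Ob, the beta chain of the H2-DM inhibitor H2-O, was at 0.595, 0.89 and 0.92 CPM in WT, 0.628, 0.291 and 0.373 CPM in Con A, and 0.189, 0.76 and 0.191 CPM in FMT-Con A. These values rest on 5 to 22 reads a library, the groups overlapped, and the log2 fold change after Con A was -0.90 (SE 0.56, edgeR adjusted p = 0.18). H2-Oa, the alpha chain, was too sparse for a fold change, and 321 of its exon bases overlap the antisense gene BC051537.

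**Figure D2:**
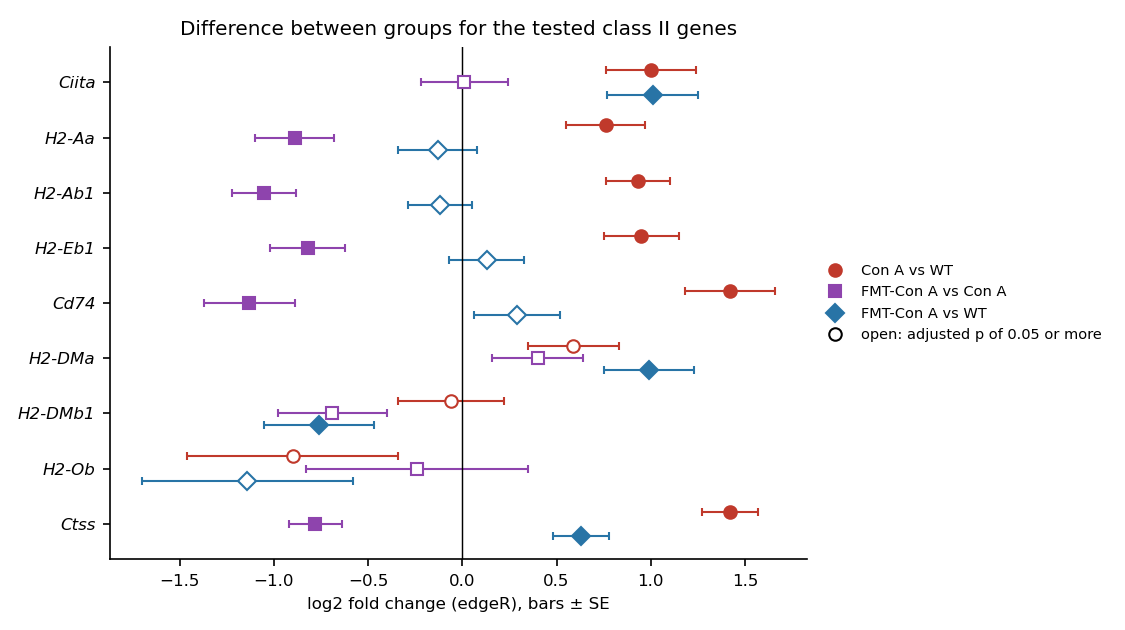
Log2 fold changes with 1 SE from the edgeR fit for the 9 tested members in the 3 comparisons, with filled points for an adjusted p under 0.05. The classical chains, Cd74 and Ctss lie right of 0 for Con A against WT and left of 0 for FMT-Con A against Con A, whereas Ciita lies at 0.01 in the latter.

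The genes that lead to CIITA rose as well. All 7 genes of the interferon-gamma route were higher after Con A, among 32.5% of all tested genes called higher. Ifng, the cytokine itself, went from a mean of 0.168 CPM in WT to 15.2 CPM in Con A, which is 6.49 on the log2 scale (edgeR adjusted p = 1.33e-06). Jak2, a kinase bound to the receptor, rose by 2.30 and Irf1, which acts on a CIITA promoter, by 4.14. Socs1, the feedback inhibitor of this signal, rose by 6.87, from 0.466 to 54.8 CPM. Of the 7 tested genes for the complex that CIITA sits on, 3 rose: Rfx5 by 0.98, Nfya by 0.86 and Nfyb by 0.69. Rfxank, Rfxap, Nfyc and Creb1 were not called, with log2 fold changes of -0.11, -0.26, -0.08 and -0.11.

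Of 8 other genes for endosomal breakdown of antigen, 5 rose, led by Lgmn, the asparagine endopeptidase, at 2.96 on the log2 scale and Ctsl, cathepsin L, at 2.88. Ctsb rose by 1.00, while Ifi30, the thiol reductase of the same compartment, stayed uncalled at -0.04. Of 6 genes for costimulation and class II turnover, 4 rose: Cd40 by 5.39, Cd83 by 2.36, Cd86 by 1.54 and March1, a ligase that removes class II from the surface, by 1.94. The related ligase March8 fell by 0.53. The class I route held 8 higher genes of 9, from the heavy chain H2-K1 at 0.89 to Tap1, the peptide transporter subunit, at 2.61, with Nlrc5, the class I counterpart of CIITA, at 0.99. B2m, the light chain of class I, was not called (-0.02). The adjusted p of each gene named as risen or fallen was under 0.05 by edgeR. These counts stand beside 63.4% of all tested genes called in this comparison, 32.5% as higher and 30.9% as lower.

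**Figure D3:**
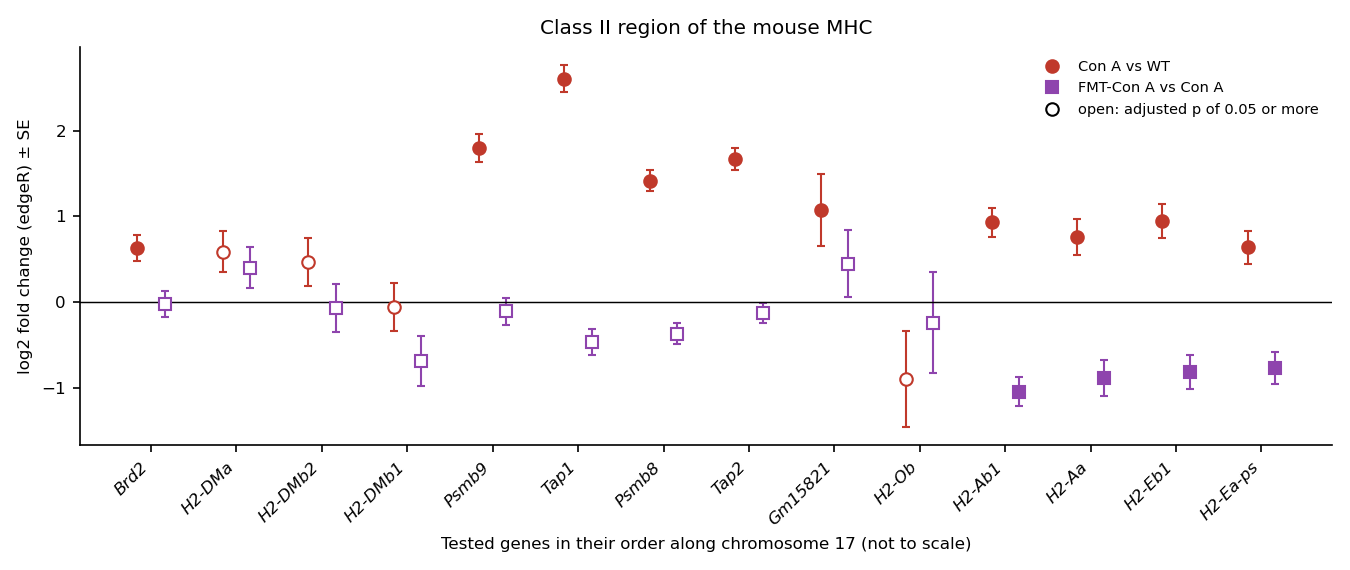
Log2 fold changes of the 14 tested genes between Brd2 and H2-Ea-ps in their order along chromosome 17, for Con A against WT and FMT-Con A against Con A, with 1 SE from edgeR. After Con A the class I genes Psmb9, Tap1, Psmb8 and Tap2 rise by 1.42 to 2.61, more than their class II neighbours, and against Con A the fall is deepest at H2-Ab1 and H2-Aa.

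Of the members, 7 lie within a single stretch of chromosome 17, from H2-Oa (chr17:34092340-34095234) through H2-DMa (chr17:34119541-34139101), H2-DMb1 (chr17:34153072-34160230), H2-Ob (chr17:34238903-34254414), H2-Ab1 (chr17:34257689-34269419) and H2-Aa (chr17:34282744-34287823) to H2-Eb1 (chr17:34305867-34316674). Between H2-DMb1 and H2-Ob stand the class I processing genes Psmb9, Tap1, Psmb8 and Tap2. After Con A their log2 fold changes were 1.80, 2.61, 1.42 and 1.67, against -0.06 for H2-DMb1 on one side and -0.90 for H2-Ob on the other, followed by 0.93 for H2-Ab1. Neighbours on the chromosome thus had unlike fold changes, though no test of the difference between genes was run. H2-DMb1 and H2-Ob were not called, and H2-Ob (SE 0.56) rests on 6 to 22 reads a library in WT and Con A. The stretch was chosen after its values had been seen.

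Marker lists of the cells that could carry class II moved in different ways between WT and Con A. Their calls stand beside 63.4% of all tested genes called in this comparison, 32.5% as higher and 30.9% as lower. Markers of B cells summed to 14 to 17.1 CPM in WT and 14.4 to 17.5 CPM in Con A, and 1 of 10, Pax5, was called, as lower, a call that DESeq2 did not make and that was lost without WT 1, Con A 2 or Con A 3. Conventional dendritic cell markers summed to 17 to 22.2 CPM in WT and 12.9 to 18.4 CPM in Con A. Of 7 tested, 3 were higher (Itgax, Batf3 and Ccr7) and 3 lower (Clec9a by -2.38, Zbtb46 by -1.25, Xcr1 by -1.21). Ccr7 overlapped between the groups, with 0.456 CPM in Con A 3 and 0.46 CPM in WT 3. Kupffer cell markers summed to 210 to 297 CPM in WT and 202 to 232 CPM in Con A, with Marco, Adgre1 and C1qc higher and Clec4f and Vsig4 lower of 9. With 1 library left out, 1 to 3 of these 9 were called: 1 without WT 1 or Con A 3, 2 without WT 3 or Con A 1, and 3 without WT 2 or Con A 2. Pan-leukocyte markers summed to 36.7 to 49.3 CPM in WT and 93.9 to 113 CPM in Con A, with 5 of 5 higher. Without WT 1, WT 2, Con A 1 or Con A 2, 4 of the 5 were called, and Ptprc overlapped between the groups. Monocyte and macrophage markers summed to 60 to 76.4 CPM in WT and 330 to 849 CPM in Con A, most of it Cd14 (8.09 on the log2 scale), with Ly6c2, Itgam and Cd14 higher and Ccr2, Cx3cr1 and Csf1r lower of 8. Markers of the sinusoidal endothelium summed to 102 to 132 CPM in WT and 123 to 183 CPM in Con A, with Lyve1 (2.93), Cdh5 (2.07), Pecam1 (1.86) and Stab2 (0.65) higher and Clec4g (-2.19) and Kdr (-2.62) lower of 7. Plasmacytoid dendritic cell markers summed to 166 to 260 CPM in WT and 334 to 423 CPM in Con A, most of it Bst2. Of 3 tested, Bst2 was higher (0.98) and Ccr9 lower (-1.25), the latter a call that DESeq2 did not make. No gene of these lists was at 0 in a whole group. Their part in the members' rise was not tested, and in whole liver more cells of a type and more RNA per cell cannot be told apart.

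Between FMT-Con A and Con A the members parted: the classical chains, Cd74 and Ctss were lower in the mice that had received faeces, while the mean of Ciita was nearly the same. Of the 9 tested members, 5 fell and none rose (edgeR, adjusted p under 0.05): H2-Aa, H2-Ab1, H2-Eb1, Cd74 and Ctss. Of all tested genes, 16.8% were called in this comparison, 6.26% as higher and 10.6% as lower. The members' median was -0.78 on the log2 scale, that of all tested genes -0.01, and 6 of 10 members had no overlap between the groups, against 32.7% of tested genes. This comparison and the one of Con A with WT share the Con A libraries.

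Cd74 fell by 1.13 on the log2 scale (SE 0.24, edgeR adjusted p = 0.0146), to 0.46 of its Con A level. H2-Ab1 fell by 1.05 (SE 0.17, adjusted p = 0.00546), H2-Aa by 0.89 (SE 0.21, adjusted p = 0.0212) and H2-Eb1 by 0.82 (SE 0.20, adjusted p = 0.0236). Ctss fell by 0.78 (SE 0.14, adjusted p = 0.00965). For each of these 5 genes every FMT-Con A library was below every Con A library, as the values above show. Ciita differed by 0.01 (SE 0.23, edgeR adjusted p = 0.99), with means of 7.36 CPM in Con A and 7.4 CPM in FMT-Con A. H2-DMa was at 0.40 (SE 0.24, adjusted p = 0.256) and H2-DMb1 at -0.69 (SE 0.29, adjusted p = 0.12). H2-Ob was at -0.24 (SE 0.59, adjusted p = 0.808).

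These calls rest on few libraries. In a fit of only these 2 groups H2-Aa also lost its call (-0.86, edgeR adjusted p = 0.0551). Without Con A 1 or without FMT-Con A 1, 1 of the 5 calls was left, and without FMT-Con A 3, 2 were left; H2-Ab1 kept its call in each of these and in every other omission of 1 library, at -1.18 to -0.94. Without both FMT-Con A libraries of highest muscle counts, 1 and 3, none of the 9 members was called by edgeR, 3 had an unadjusted p under 0.05, all lower, and the log2 fold changes were -0.60 for H2-Aa, -0.79 for H2-Ab1, -0.57 for H2-Eb1, -0.78 for Cd74 and -0.50 for Ctss.

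In a comparison that called 10.6% of all tested genes lower and 6.26% higher, the route to CIITA was lower in part. Of its 7 genes, 4 were lower in FMT-Con A than in Con A and none was higher: Ifng fell by 2.09 on the log2 scale, from a mean of 15.2 to 3.59 CPM (edgeR adjusted p = 0.00353), Jak2 by 0.98, Jak1 by 0.69 and Ifngr1 by 0.47. Ifngr2, Irf1 and Socs1 were not called, at -0.45, -0.52 and 0.36. None of the 7 genes of the CIITA-bound complex was called by edgeR or DESeq2, and at an unadjusted p under 0.05 Rfxap was higher (0.44) and Nfya lower (-0.30). In endosomal processing Lgmn fell by 0.71 and the other 7 were not called. Cd86, a ligand of CD28, fell by 1.13, Cd40 by 0.77 and March1 by 0.64. In the class I route 4 of 9 were lower: B2m by 0.78, H2-D1 by 0.65, H2-K1 by 0.58 and Tapbp by 0.42. H2-Ea-ps fell by 0.77 (edgeR adjusted p = 0.025), at -0.56 (adjusted p = 0.343) without FMT-Con A 1 and 3 and also uncalled without either of them, Con A 1 or Con A 2. Over these 5 lists 12 of 37 tested genes were called lower, against 2 without Con A 1, without FMT-Con A 1 or without FMT-Con A 3. Without both FMT-Con A 1 and 3, edgeR called 0 of the 37, with 12 lower and 1 higher at an unadjusted p under 0.05.

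**Figure D4:**
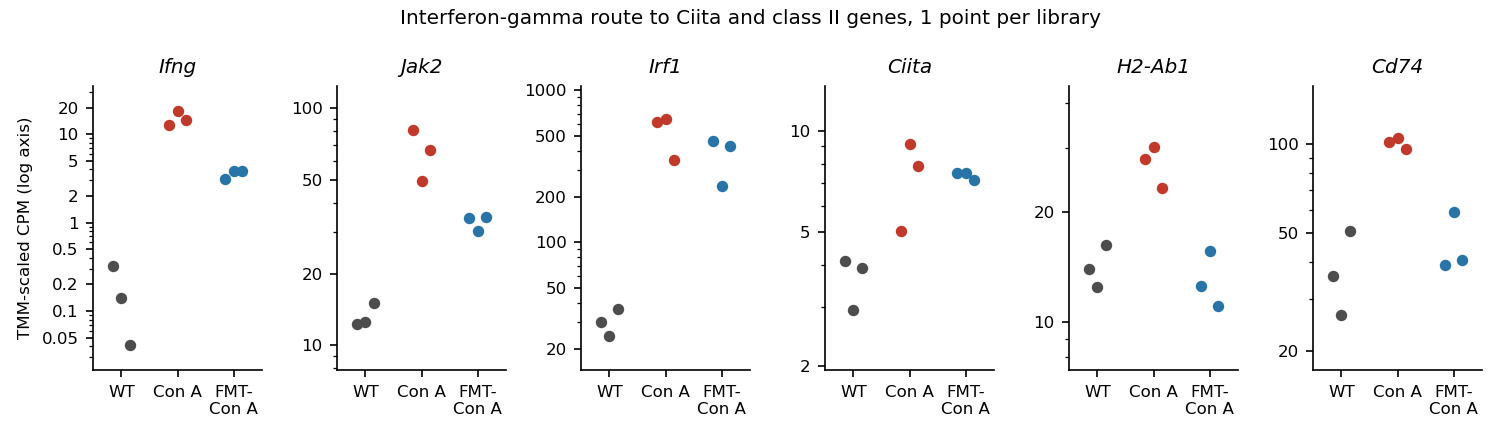
CPM in each of the 9 libraries for Ifng, Jak2, Irf1, Ciita, H2-Ab1 and Cd74, from the cytokine to the class II genes, on log axes with 1 panel per gene and 1 point per library. Ifng, Jak2, H2-Ab1 and Cd74 are lower in FMT-Con A than in Con A, and Irf1 and Ciita overlap between these groups.

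Cell markers also moved between these groups. Of all tested genes, 10.6% were called lower and 6.26% higher in this comparison. Kupffer cell markers summed to 202 to 232 CPM in Con A against 94.2, 188 and 94.3 CPM in FMT-Con A 1, 2 and 3, so that the low sums were in both libraries of highest muscle counts. Of 9 Kupffer cell genes Cd5l and Adgre1 were lower, all 9 were lower without FMT-Con A 2, and edgeR called 0 without FMT-Con A 1 and 3, with 0 at an unadjusted p under 0.05. Pan-leukocyte markers summed to 93.9 to 113 CPM in Con A and 70.9 to 80.2 CPM in FMT-Con A, with 2 of 5 lower, and 0 without FMT-Con A 1 and 3 (0 at an unadjusted p under 0.05). Those of conventional dendritic cells summed to 12.9 to 18.4 and 14.2 to 17.7 CPM, with 1 of 7, Clec10a, higher. Clec10a was at 4.55, 0.95 and 4.46 CPM in FMT-Con A 1, 2 and 3 and at 0.314, 1.07 and 0.539 CPM in Con A, high again in the libraries of highest muscle counts. B cell markers summed to 14.4 to 17.5 and 15.6 to 24.3 CPM, with 0 of 10 called by edgeR or DESeq2 and none at an unadjusted p under 0.05. Hepatocyte markers summed to 60640 to 69711 CPM in Con A and 40338 to 48077 CPM in FMT-Con A, with 2 of 6, Alb and Cps1, lower. Alb alone had means of 35418 and 19256 CPM, while Hnf4a (-0.16), Fgb (-0.10), Ttr (-0.59) and Apoa1 (-0.44) were not called. Monocyte and macrophage markers summed to 501, 330 and 849 CPM in Con A 1, 2 and 3 and to 351, 585 and 340 CPM in FMT-Con A 1, 2 and 3. Of these 8, Ccr2 was higher and Csf1r lower. With 1 library left out, 1 or 2 of the 8 were called higher, and a lower call stood only without FMT-Con A 2. Sinusoidal endothelium markers summed to 183, 152 and 123 CPM in Con A and to 152, 102 and 146 CPM in FMT-Con A, with Stab2 lower of 7. With 1 library left out, a gene of this list was called only without Con A 2. Plasmacytoid dendritic cell markers summed to 334 to 423 CPM in Con A and 213 to 243 CPM in FMT-Con A, most of it Bst2. Of 3 tested, only Bst2 was called, as lower (-0.76). No gene of these lists was at 0 in a whole group, and their part in the members' fall was not tested.

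Against WT, the transactivator was higher in the FMT-Con A livers, while no classical chain was called. Of the 9 tested members, 3 were higher and 1 lower (edgeR), where 59.0% of all tested genes were called, 31.2% as higher and 27.9% as lower. Ciita was higher by 1.01 on the log2 scale (SE 0.24, adjusted p = 0.00452), H2-DMa by 0.99 (SE 0.24, adjusted p = 0.00536) and Ctss by 0.63 (SE 0.15, adjusted p = 0.00429). H2-DMb1 was lower by -0.76 (SE 0.29, adjusted p = 0.0427), a call that DESeq2 did not make (adjusted p = 0.0665) and that was lost with any 1 library of either group left out. H2-Aa, H2-Ab1, H2-Eb1 and Cd74 were not called, at -0.13, -0.12, 0.13 and 0.29 with SEs of 0.21, 0.17, 0.20 and 0.23. The members' median was 0.13, that of all tested genes 0.03, and 4 of 10 members had no overlap between the groups, against 69.1% of tested genes. H2-Ob, at -1.14 (SE 0.56, adjusted p = 0.102), was called lower without FMT-Con A 2 (-2.04, adjusted p = 0.0062). Without FMT-Con A 1 and 3, edgeR called Ciita (1.03, adjusted p = 0.0475), H2-DMa (1.27, 0.0162) and Ctss (0.92, 0.00347), and the others stood uncalled at 0.16 for H2-Aa, 0.13 for H2-Ab1, 0.38 for H2-Eb1, 0.65 for Cd74, -0.63 for H2-DMb1 and -0.08 for H2-Ob.

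The upstream genes stayed above WT. All 7 genes of the interferon-gamma route were higher, with Ifng at 4.40, Jak2 at 1.32 and Irf1 at 3.62 on the log2 scale. So were Rfx5 (0.55), Nfya (0.56) and Nfyb (0.71) in the complex that CIITA binds. Of all tested genes, 31.2% were called higher and 27.9% lower. Jak1 was nearest the threshold (edgeR adjusted p = 0.049), and with any 1 library of either group left out, 6 route genes were called. Of the CIITA-bound complex, 2 genes were called without WT 1, WT 2, FMT-Con A 1 or FMT-Con A 3, and 3 without WT 3 or FMT-Con A 2. Without FMT-Con A 1 and 3, 6 of the 7 route genes were called higher and edgeR called 0 of the 7 genes of that complex, with 1 higher at an unadjusted p under 0.05. Tap1 and Psmb9, within the class II stretch, were higher by 2.14 and 1.69, while B2m was lower by -0.80. Of 9 Kupffer cell markers, Clec4f (-2.06), Vsig4 (-1.51), Cd5l (-1.60) and Timd4 (-1.21) were lower and Marco (2.64) was higher in this comparison. The 9 summed to 94.2, 188 and 94.3 CPM in FMT-Con A 1, 2 and 3, against 210 to 297 CPM in WT. Pan-leukocyte markers had 3 of 5 higher and 0 lower, and B cell markers 1 of 10 higher and 0 lower. Conventional dendritic cell markers had 4 of 7 higher and 3 lower, and monocyte and macrophage markers 4 of 8 higher and 2 lower. Those of the sinusoidal endothelium had 3 of 7 higher and 2 lower. The part of these lists in the members' values was not tested.

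Ratios within a library, which do not depend on its depth, put Ciita beside the chains directly. The log2 ratio of Ciita to the summed classical chains, both per kilobase, was -5.37, -5.64 and -5.76 in the WT livers, -6.12, -5.33 and -5.11 after Con A alone, and -4.52, -4.82 and -4.34 in the FMT-Con A livers. The FMT-Con A libraries lay above all others, and WT and Con A overlapped. The mean was -5.59 ± 0.20 (SD, n = 3) for WT, -5.52 ± 0.53 for Con A and -4.56 ± 0.24 for FMT-Con A. FMT-Con A was higher than Con A by 0.96 and than WT by 1.03, each at p = 0.10 by a two-sided exact permutation test, the smallest p that 3 libraries against 3 can give, and 0.18 after adjustment over 9 ratio comparisons. Con A differed from WT by 0.07 (exact permutation p = 0.90). FMT-Con A 2 alone lay 0.70 above the Con A mean and 0.77 above the WT mean, with no test.

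The ratio of Cd74 to the same chains was 0.24 ± 0.21 (SD, n = 3) for WT, 0.81 ± 0.17 for Con A and 0.56 ± 0.18 for FMT-Con A. Con A lay above WT by 0.57 and FMT-Con A differed from Con A by -0.25, each without overlap. Each had an exact permutation p of 0.10, the smallest possible, and 0.18 after adjustment. FMT-Con A and WT overlapped (0.32, exact permutation p = 0.20). FMT-Con A 2 alone differed by -0.14 from the Con A mean and by 0.43 from the WT mean, with no test. The ratio of H2-O to H2-DM, each as the sum of its chains, was -3.26 ± 0.40 for WT, -4.31 ± 0.37 for Con A and -5.16 ± 1.26 for FMT-Con A. Con A differed from WT by -1.05 without overlap (exact permutation p = 0.10, and 0.18 after adjustment). FMT-Con A 2, at -3.70, stood apart from FMT-Con A 1 and 3, at -5.88 and -5.90, and lay 0.61 above the Con A mean, and these values rest on few reads of H2-Oa and H2-Ob.

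**Figure D5:**
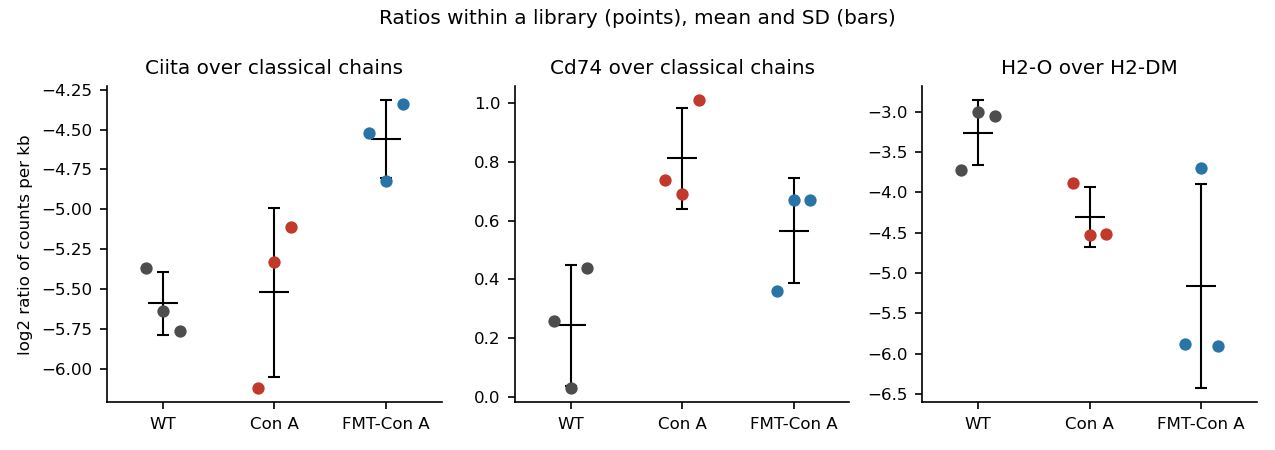
Log2 ratios of counts per kilobase in each of the 9 libraries, for Ciita over the classical chains, Cd74 over the classical chains and H2-O over H2-DM, with the group mean and SD. In the first panel the FMT-Con A libraries, at -4.82 to -4.34, lie above all WT and Con A libraries.

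Outside the members, and leaving out predicted genes and pseudogenes, the genes whose levels ran closest to H2-Aa and to Ciita differed from each other. For H2-Aa, with Pearson's r of log2 CPM over the 9 libraries, they were Blvra (0.960), Slc11a1 (0.945), Mov10 (0.944), Psmf1 (0.932) and Ncr1 (0.928). For Ciita they were Gid8 (0.995), Rasgrp4 (0.978), Ccl24 (0.975), Zscan21 (0.973) and Golph3l (0.960). The 9 libraries form 3 groups and were scaled together, so these values describe mostly the order of the groups, and they carry no p.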

How the data were processed

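Liver polyA RNA was sequenced as pairs of reads in 9 libraries. The submitters' processing notes list the tools CASAVA, HISAT2 and featureCounts and the build GRCm38 (mm10); versions, annotation release and strand setting were not given in the sources used here. The deposited values are the authors' raw read counts per gene, 1 table per library. Symbols came from GENCODE mouse release M21 (52083 of 55359 IDs matched), and 1360 numbered gene models without an ID held 1.43 to 1.98% of the counts. Total counts were 20513051 to 29466806, and H2-Oa and H2-Ob rest on few reads.

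Counts were fitted with edgeR 4.0.16 in R 4.3.3 (TMM scaling, quasi-likelihood test, all 3 groups in 1 fit, 6 residual degrees of freedom). Genes passed filterByExpr at a minimum count of 10 and a minimum total of 15, which left 17704. A call is a Benjamini-Hochberg adjusted p under 0.05 over all of them, and the SE is the log2 fold change divided by the root of F. CPM (edgeR's cpm) uses the TMM-scaled library sizes, and levels per kilobase use the merged exon length. The script was tested on simulated data. The labels number the mice but do not say how they were housed or sampled, so p-values measure only the spread between these libraries. No pair of libraries was a duplicate by its count differences.

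The members and gene lists were chosen with earlier results of these data known. The rule for named genes took the 10 members, up to 3 genes with the lowest p of each list and comparison, and the 5 protein-coding genes outside the members most like H2-Aa and Ciita; further list genes and the neighbours on chromosome 17 were named after their values were seen. Alternatives were DESeq2 1.42.0, other scaling and filters, a fit of only the groups compared, a replicate block and the omission of libraries. Promoter sequences are RefSeq's. One gene of the interferon-gamma list is not reported here.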

Additional observations from a re-analysis of the deposited data

How the results depend on the processing

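All 6 members called higher in Con A against WT kept their direction and call under every alternative run. FMT-Con A against Con A was less firm: 2981 genes were called, against 1156 when only those 2 groups were fitted, 664 to 4053 when 1 library was omitted, and 99 without both FMT-Con A libraries of highest muscle counts, an alternative chosen after seeing the data in which the lone library is assumed to vary like the other groups. Members called there numbered 1 to 5 with 1 library omitted and 0 without both. For FMT-Con A against WT, 10449 genes were called, against 6957 without both.

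Directions turned only for members that were not called. For FMT-Con A against Con A, Ciita was at -0.19 without Con A 1 (to 0.21 over single omissions), and H2-Ob at 0.13 without Con A 1, 0.12 without FMT-Con A 1, 0.09 without FMT-Con A 3 (down to -1.13 over single omissions) and 0.82 without both. For Con A against WT, H2-DMb1 was at 0.02 without WT 2 and 0.14 without Con A 1 (down to -0.20 over single omissions). For FMT-Con A against WT, H2-Eb1 was at -0.01 without WT 2 and -0.01 without FMT-Con A 2 (to 0.33), H2-Aa at 0.03 without WT 3 (to -0.29) and 0.16 without both, and H2-Ab1 at 0.13 without both. The cause was not tested.

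The labels do not say whether equal replicate numbers mark a pair. Deviations of same-numbered libraries from their group means correlated at -0.216 to 0.344, and not every library correlated best with its own number. With 3 libraries a group, these values cannot show whether a pairing exists. With the replicate block, 11093, 2663 and 10207 genes and 7, 5 and 3 members were called in Con A against WT, FMT-Con A against Con A and FMT-Con A against WT. Over all alternatives, 299 member fold changes kept their direction and call, 27 lost a call, 3 gained one and 12 changed sign; 69 ratio differences kept their sign and 3 turned, all of Ciita over the classical chains in Con A against WT (-0.03 without Con A 2, -0.14 without Con A 3, -0.02 without WT 3); 530 counts over gene lists stayed within 1.5 times and 151 did not.

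Depth limits H2-Oa and H2-Ob, at 0 to 22 reads a library, and the H2-O ratios. Permutation over 3 against 3 libraries cannot pass 0.05. The transfer of faeces without Con A was not analysed here.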
